A study of Mus musculus with 18 samples.

Results

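The 9 enzymes that break down or interconvert amino acids, tyrosine aminotransferase (Tat), 4-hydroxyphenylpyruvate dioxygenase (Hpd), tryptophan 2,3-dioxygenase (Tdo2), histidine ammonia-lyase (Hal), serine dehydratase (Sds), cytosolic aspartate aminotransferase (Got1), mitochondrial alanine aminotransferase (Gpt2), asparagine synthetase (Asns) and phosphoserine aminotransferase (Psat1), were followed in mouse liver. Members were taken by gene symbol: every probe set that the array annotation assigned to 1 of these symbols alone was used. Of the 9 genes, 8 had such a probe set, out of 18193 genes on the array, and together they had 15 probe sets. Sds was not analysed here. The livers came from male C57BL/6J mice, 62 weeks old, and were hybridised to 18 Affymetrix Mouse Genome 430 2.0 arrays, 3 mice in each of 6 groups. From 5 weeks of age the mice ate a low-fat diet (10% of it fat) or a high-fat diet (60% fat). On each diet they ate freely (LF and HF), ate 30% less than the freely fed mice (LF+CR and HF+CR), or could run at will on a wheel while eating freely (LF+Ex, HF+Ex). All mice were housed singly, 30 mice were assigned to each group, and the restricted groups received their own diet in a ration set weekly from what the freely fed mice of that diet ate. The time of day of sampling and the hours since the last meal were not given in the sources used here. Each array is a separate mouse, and precision is limited by having 3 per group.

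The liver is the main site at which surplus amino acids lose their nitrogen and their carbon skeletons are burned or turned into glucose. Aminotransferases move the amino group onto a keto acid: Tat opens tyrosine breakdown, Got1 works on aspartate and the malate-aspartate shuttle, and Gpt2 on alanine and pyruvate. Tdo2 and Hal commit tryptophan and histidine to breakdown, and Hpd carries out the step after Tat. Tat and Tdo2 are textbook glucocorticoid-induced liver enzymes, and Tat, Hal and Sds are known to follow dietary protein and fasting. Asns and Psat1 run the other way, making asparagine and serine, and are known targets of ATF4, the transcription factor of the amino acid shortage response.

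Promoter sequence is shown for Tat, Got1, Psat1 and Asns, so that the letters upstream of each start can be read beside the values. The windows of Hpd, Tdo2, Hal and Gpt2 were searched in the same way and are not shown. RefSeq promoter windows (GRCm38.p6) matched 8 of the 9 genes by symbol. The 250 bases before the start were searched on both strands for the C/EBP-ATF response element core TGATGNAA and for the CCAAT box. The cyclic AMP response element TGACGTCA, its half-site TGACG and the glucocorticoid response element half-site AGAACA were searched as well. Capitals mark matches to TGATGNAA or CCAAT only, and a match read on the other strand appears as its reverse complement.
Tat, chr8:109990186-109990435, plus strand: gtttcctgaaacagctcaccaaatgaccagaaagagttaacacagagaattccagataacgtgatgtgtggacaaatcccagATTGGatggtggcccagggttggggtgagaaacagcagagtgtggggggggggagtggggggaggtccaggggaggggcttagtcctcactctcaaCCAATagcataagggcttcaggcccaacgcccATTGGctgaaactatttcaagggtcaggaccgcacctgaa
Got1, chr19:43524606-43524855, minus strand: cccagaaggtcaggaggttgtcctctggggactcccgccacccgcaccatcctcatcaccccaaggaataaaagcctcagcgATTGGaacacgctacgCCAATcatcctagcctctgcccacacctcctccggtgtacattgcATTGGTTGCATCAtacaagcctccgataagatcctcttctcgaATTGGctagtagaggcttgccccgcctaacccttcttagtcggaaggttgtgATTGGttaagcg
Psat1, chr19:15925060-15925309, minus strand: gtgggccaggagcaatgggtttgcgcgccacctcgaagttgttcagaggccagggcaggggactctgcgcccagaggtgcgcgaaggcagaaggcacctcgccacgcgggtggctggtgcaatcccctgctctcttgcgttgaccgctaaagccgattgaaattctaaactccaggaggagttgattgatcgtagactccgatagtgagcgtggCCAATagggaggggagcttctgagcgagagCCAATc
Asns, chr6:7693210-7693459, minus strand: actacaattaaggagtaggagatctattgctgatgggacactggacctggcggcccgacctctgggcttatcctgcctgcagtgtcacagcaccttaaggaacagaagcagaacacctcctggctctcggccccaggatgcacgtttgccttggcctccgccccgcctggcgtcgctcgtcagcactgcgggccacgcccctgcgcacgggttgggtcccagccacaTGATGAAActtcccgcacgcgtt
The core TGATGNAA was present in 2 of the 8 members, at 23 bases before the start in Asns and, on the other strand, at 102 bases before it in Got1, and in 3.45% of 32851 RefSeq windows of the same length. A CCAAT box was present in 5 of the 8 members (Tat, Tdo2, Hal, Got1 and Psat1) and in 33.8% of all windows. Psat1 has another RefSeq window, not shown. Tat held 3, Got1 held 5 and Psat1 held 2 in the window shown. The marked TGATGNAA match of Got1 starts directly after a CCAAT match and does not overlap it. Hpd and Gpt2 held neither TGATGNAA nor CCAAT. TGACGTCA was present in 0 of the 8 members and in 1.55% of all windows. TGACG was present in 1 of the 8 (Asns) and in 17.8% of all windows. AGAACA was present in 1 of the 8 (Asns) and in 16.1% of all windows.

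Values are the deposited linear intensities. A gene was read from its brightest probe set, and fold changes are differences of log2(intensity + 16), which understates the change of dim genes. A gene entered the test if it exceeded the 40th percentile of the array (88.2 to 97.6) on at least 3 arrays. Across all arrays mean intensity was 305 to 308. Summed pancreatic acinar markers (9 of 12 listed on the array) stood at 2023 to 5089.5 on LF 1, LF+CR 1, LF+Ex 3 and HF+Ex 1 and at 957 to 1255 on the other 14 arrays. The summed hepatocyte markers, 6 of 8 on the array (Alb, Ttr, Apoa1, Ahsg, Cps1 and Ass1), ranged from 62029 to 71350. On the first principal component, HF 1, HF+Ex 3 and LF+CR 2 were the most distant, and these 3 arrays had the highest stellate cell and fibroblast marker sums, 4546 to 6260.4, against 2916 to 4350.2 on the other 15. Each member call below is given without the acinar-marker arrays or without these 3 arrays wherever that ended it. Of 38 calls on other named genes of the pathways, 23 ended without these 3 arrays and 25 without the 4 acinar-marker arrays. Fitting only the groups compared ended 24. Below, the calls on these other genes are not each given under these settings.

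Calorie restriction was the intervention under which members passed the test, and Tat rose with it on both diets. A gene was called when limma's adjusted p, by Benjamini-Hochberg over 14201 tested genes, was under 0.05. In LF+CR against LF 2 of 8 members were called, both higher (Tat and Psat1), against 5.57% of all genes; 2.3% of all genes were called higher. In HF+CR against HF 2 of 8 were called, Tat higher and Gpt2 lower, against 6.07% of all genes (3.52% higher and 2.55% lower). None of the 8 was called in HF against LF, where 0.894% of all genes were. Running called none: the share over all genes was 0.00704% in LF+Ex against LF and 0% in HF+Ex against HF, with 561 and 348 genes at an unadjusted p under 0.05. No member was called for a difference in the restriction effect between diets, against 5.75% of all genes, or in the running effect, against 0.00704%. With 8 members, 1 or 2 calls in a comparison describe those genes, and the set as a whole was not tested.

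**Figure D1:**
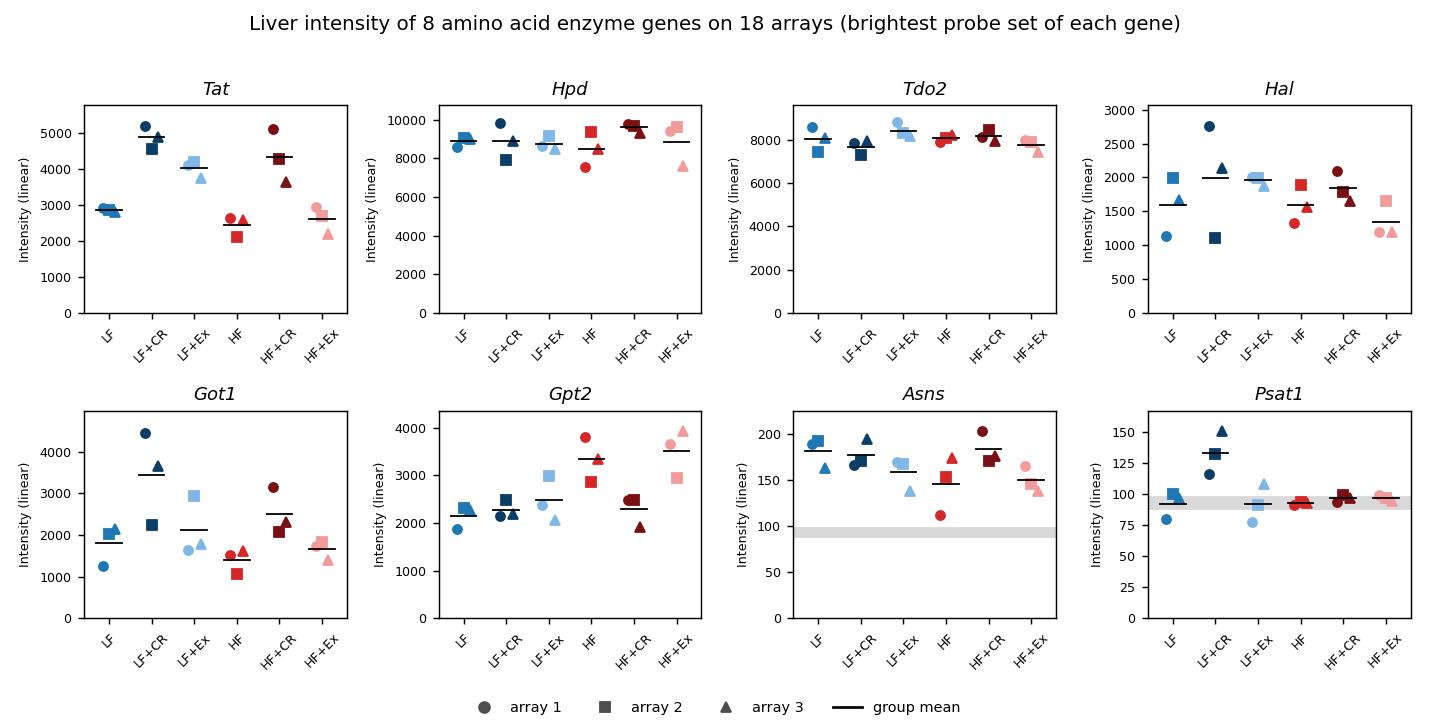
Intensity (linear) of the brightest probe set of 8 members on each of 18 arrays. Symbols give array numbers 1 to 3 within a group, and black lines give the group means. The grey band in the Asns and Psat1 panels is the range over arrays of the threshold for entering the test (88.2 to 97.6). The threshold is a percentile of each array and not a detection call. Tat stood higher in both restricted groups and in LF+Ex, Gpt2 stood higher in HF and HF+Ex, and Psat1 rose out of the band in LF+CR.

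Tat, the first enzyme of tyrosine breakdown, stood higher in both restricted groups than in LF, HF and HF+Ex. On probe set 1451557_at the LF arrays read 2909.8, 2846 and 2792, and the LF+CR arrays 5175, 4557 and 4868. Every LF+CR array stood above every LF array, by 0.77 on the log2 scale (SE 0.121, 1.7-fold, limma adjusted p = 0.00136). The HF arrays read 2622, 2109 and 2565, and the HF+CR arrays 5095, 4267 and 3643. The groups were again apart, by 0.82 (SE 0.121, 1.77-fold, limma adjusted p = 0.00149), with the lowest restricted array at array 3. The restriction effects on the 2 diets differed by 0.056 (95% interval -0.31 to 0.42), a difference not called (limma adjusted p = 0.865). Both restriction calls on Tat held in each of 14 alternative settings and when any of the 6 arrays was left out. In bulk liver RNA, more RNA per hepatocyte and a larger share of hepatocytes cannot be told apart. The summed hepatocyte markers were 69594 to 71350 in LF+CR and 64745 to 66539 in LF, and 65899 to 68107 in HF+CR and 63641 to 65874 in HF. That sum includes Cps1, which correlated with Tat at r = 0.905 over the 18 arrays. The part of the hepatocyte markers in the Tat result was not tested. The log2 difference of the clock genes Arntl and Dbp was -4.03 to -1.88 in LF and -4.32 to -2.57 in LF+CR, and Tat kept both calls with that difference as a covariate.

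Tat also separated runners by diet. The LF+Ex arrays read 4106, 4199.6 and 3739 and did not overlap LF, with a difference of 0.49 (95% interval 0.23 to 0.75, unadjusted p = 0.000931) that limma did not call over all genes (adjusted p = 0.792). The HF+Ex arrays read 2939.7, 2700.1 and 2187 and overlapped HF. In HF+Ex against LF+Ex, Tat was the 1 member of 8 called, against 1.75% of all genes, with a log2 difference of -0.63 (SE 0.121, limma adjusted p = 0.0144). That call was lost without LF+Ex 1 (adjusted p = 0.0785), without HF+Ex 3 (0.0734), without the 4 acinar-marker arrays (0.0517), without the 3 distant arrays (0.0578) and when these 2 groups were fitted alone (0.0542). The running effect differed between diets by -0.39 (95% interval -0.76 to -0.032), not called after adjustment (limma adjusted p = 1). Against running on the same diet, Tat was higher in HF+CR than in HF+Ex by 0.73 (limma adjusted p = 0.00555; 0.0795 with these 2 groups fitted alone), and in LF+CR than in LF+Ex by 0.28 without a call (0.174). HF+CR against HF+Ex called 2 of 8 members, Tat and Gpt2, against 2.71% of all genes. Ordered by mean, Tat ran from HF (2432 ± 281, SD, n = 3) through HF+Ex (2609 ± 385) and LF (2849 ± 58.8) to LF+Ex (4015 ± 244), HF+CR (4335 ± 728) and LF+CR (4867 ± 309). In that order the neighbours LF and LF+Ex did not overlap, and all other neighbours did.

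**Figure D2:**
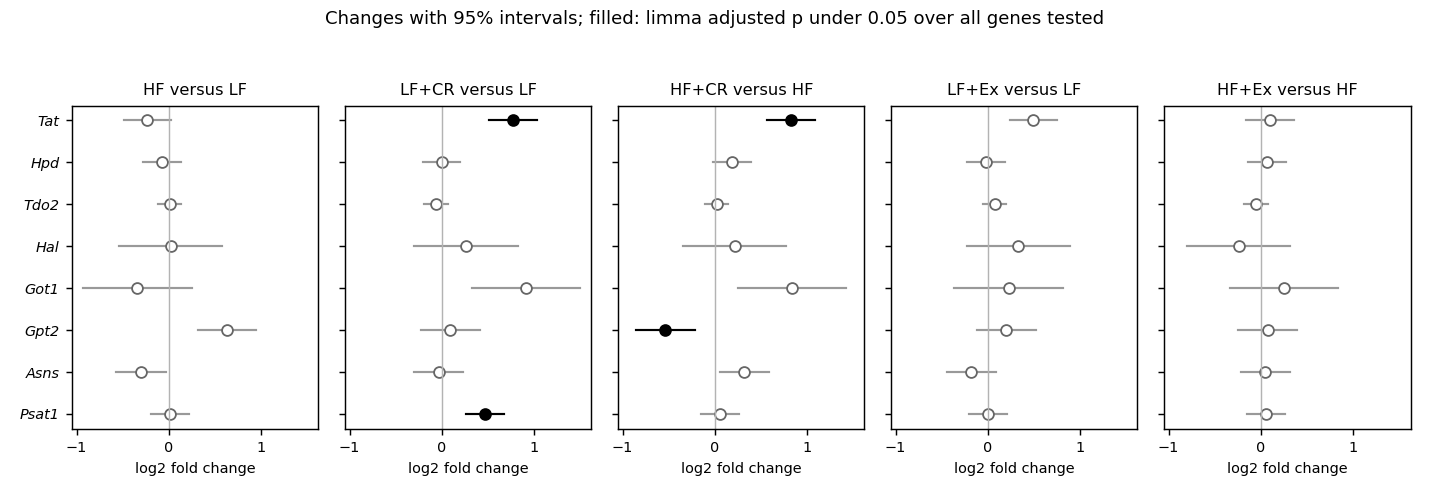
Log2 fold changes of 8 members with 95% intervals in 5 comparisons; filled points passed limma's adjusted p under 0.05 over all genes tested. Tat lay at 0.77 and 0.82 under restriction, Gpt2 at 0.63 in HF against LF and -0.54 in HF+CR against HF, and the Hal and Got1 intervals were the widest.

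Hpd, which takes over the keto acid that Tat makes, was not called in any comparison. Its group means on probe set 1424618_at lay between 8475 ± 921 in HF and 9603 ± 234 in HF+CR (SD, n = 3), and every group overlapped its neighbour in the order of means. Between HF and HF+CR the difference was 0.19 (95% interval -0.018 to 0.39, limma adjusted p = 0.238) and in LF+CR against LF -0.0045 (-0.21 to 0.20). Of 5 other tyrosine and phenylalanine genes on the array, 1 was called in LF+CR against LF (5.57% of all genes) and none in HF+CR against HF (6.07%). That gene was Qdpr, which regenerates the cofactor of phenylalanine hydroxylase, at 6102 ± 329.6 in LF and 7225 ± 416 in LF+CR (log2 difference 0.24, limma adjusted p = 0.0324). Its call was lost without the 4 acinar-marker arrays (0.355) and without any 1 of LF 1, LF 3, LF+CR 1 or LF+CR 3 (0.0675 to 0.136). In LF+CR against LF+Ex 2 of the 5 were higher, where 4.16% of all genes were. These were Qdpr and Pcbd1, another enzyme of the same cofactor cycle, by 0.34 and 0.24 (limma adjusted p = 0.00274 and 0.0221). Both calls ended without the acinar-marker arrays (0.0847 and 0.178), and that of Pcbd1 also without any 1 of LF+Ex 1, LF+Ex 3, LF+CR 1 or LF+CR 2. Fah, the last enzyme of tyrosine breakdown, was the 1 of the 5 called in HF+CR against LF+CR, where 8.93% of all genes were. It was higher in HF+CR by 0.27 (limma adjusted p = 0.0491), a call lost when any 1 of 5 of the 6 arrays was left out, the exception being LF+CR 1.

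Tdo2, which opens the kynurenine pathway of tryptophan, gave different answers on its 3 probe sets. The brightest, 1419093_at, read 7461 to 8589 in LF and 7286 to 7947 in LF+CR, with a log2 difference of -0.063 (limma adjusted p = 0.682 over 29336 probe sets), and was not called in any comparison. On 1449337_at the LF arrays read 2448, 2353 and 2587, and the LF+CR arrays 1833, 1595 and 1873. All LF+CR arrays were lower than all LF arrays, with a log2 difference of -0.48 (SE 0.0847, limma adjusted p = 0.00377). The HF arrays of 1449337_at read 2678, 2621 and 2941, and the HF+CR arrays 3175, 3120.3 and 2794, which overlapped. The remaining probe set, 1455770_at, followed 1449337_at: 2212, 2129.9 and 2334 in LF, 1627, 1519 and 1711 in LF+CR, and a log2 difference of -0.46 (limma adjusted p = 0.0023). Both signals were lower with restriction on the low-fat diet, and the difference between the diets in its effect was itself called, at 0.62 and 0.55 (limma adjusted p = 0.00837 and 0.00792).

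LF+CR stood apart from the other 5 groups on both dimmer Tdo2 probe sets. HF+CR was above LF+CR by 0.77 on 1449337_at and 0.72 on 1455770_at (limma adjusted p = 5.79e-05 and 4.32e-05), and LF+CR was below LF+Ex by log2 differences of -0.60 and -0.60 (limma adjusted p = 0.0004 and 0.00011). These comparisons share the LF+CR arrays. Of all probe sets, 4.83% were called in LF+CR against LF, 8.23% in HF+CR against LF+CR, 8.35% in LF+CR against LF+Ex and 5.07% for the interaction, beside 2 of the 3 Tdo2 probe sets in each. All these calls held in each of 13 alternative settings and with any array left out. The means of the 5 other groups ran from 2463 ± 118 in LF to 3029.6 ± 206 in HF+CR on 1449337_at, each overlapping the next. Within an array, 1449337_at minus 1419093_at was -1.70 on the log2 scale in LF (SD 0.0916), -2.11 in LF+CR (SD 0.0575), -1.55 in HF and -1.43 in HF+CR. The LF+CR arrays (-2.18 to -2.08) lay below the LF arrays (-1.80 to -1.64) in this difference. Over 18 arrays the dimmer pair correlated at r = 0.992 with each other and at 0.558 and 0.530 with the brightest. The array annotation gives 1419093_at and 1449337_at the same source transcript. At the gene level Tdo2 is called in LF+CR against LF only where its probe sets are averaged (adjusted p = 0.00738). The hepatocyte marker sums given for Tat apply here as well, with LF+CR highest.

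**Figure D3:**
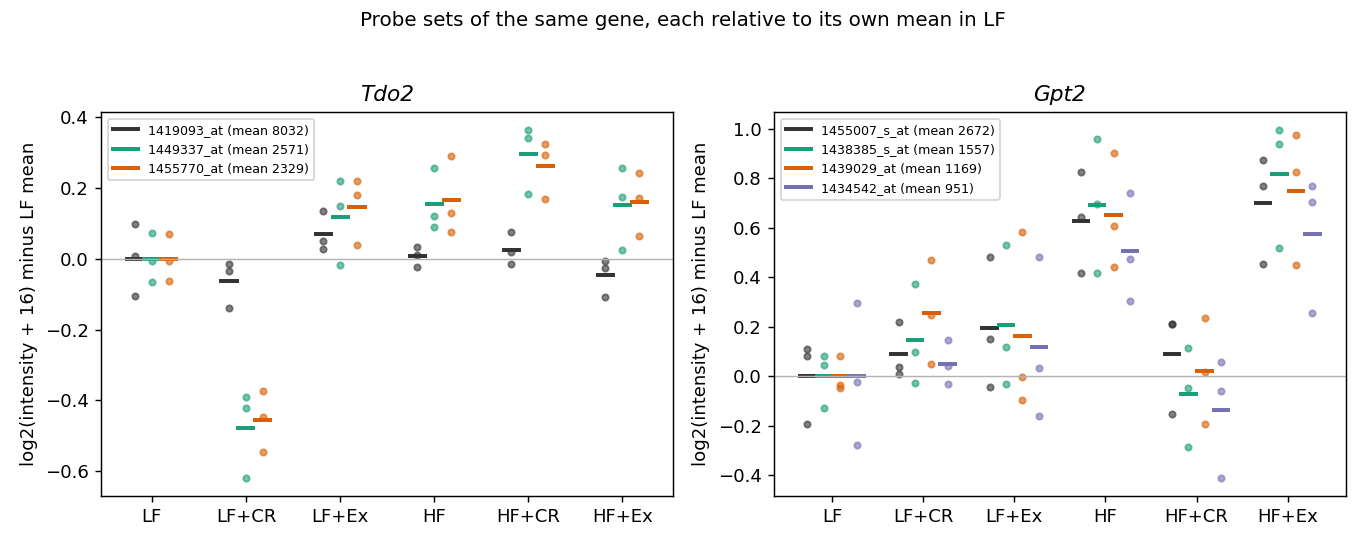
Log2(intensity + 16) of the 3 Tdo2 and 4 Gpt2 probe sets on each array, each relative to its own mean in LF; points are arrays, bars group means, and the legend gives the mean intensity over all arrays. The dimmer Tdo2 probe sets were lower in LF+CR while 1419093_at overlapped LF, and the 4 Gpt2 probe sets correlated pairwise at 0.922 to 0.973.

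The kynurenine pathway beyond Tdo2 was read from a list of 7 genes. Of 6 on the array, none was called in LF+CR against LF or in HF+CR against HF, 2 were higher in HF+CR than in LF+CR, and the same 2 were lower in LF+CR than in LF+Ex, where 5.62% and 5.15% of all genes were. These were Kmo, kynurenine 3-monooxygenase, and Aadat, an aminotransferase of kynurenine and aminoadipate. Kmo read 1506, 1233 and 1339 in LF+CR and 1925, 1868 and 1872 in HF+CR, a log2 difference of 0.47 (SE 0.0829, limma adjusted p = 0.00233). LF+Ex read 1819, 1982 and 1909.8, above LF+CR, with a log2 difference of LF+CR against LF+Ex of -0.48 (limma adjusted p = 0.00166). No LF+CR array of Kmo reached the lowest HF+CR or LF+Ex array. Aadat was at 966 ± 147 in LF+CR, 1396 ± 50.1 in HF+CR and 1325 ± 119 in LF+Ex, with log2 differences of 0.53 for HF+CR against LF+CR (limma adjusted p = 0.00868) and -0.46 for LF+CR against LF+Ex (0.0191). The second Aadat call was lost without any 1 of LF+Ex 1, LF+Ex 2, LF+CR 2 or LF+CR 3 (0.0565 to 0.0842). The list's median log2 difference in LF+CR against LF was -0.21, with a median over all genes of -0.0086. A median of this size was not particular to the list. In the same comparison the list of transcription factors treated below had -0.21, transamination and glutamate, proline and ornithine breakdown 0.16, and glucocorticoid and fasting targets 0.13.

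**Figure D4:**
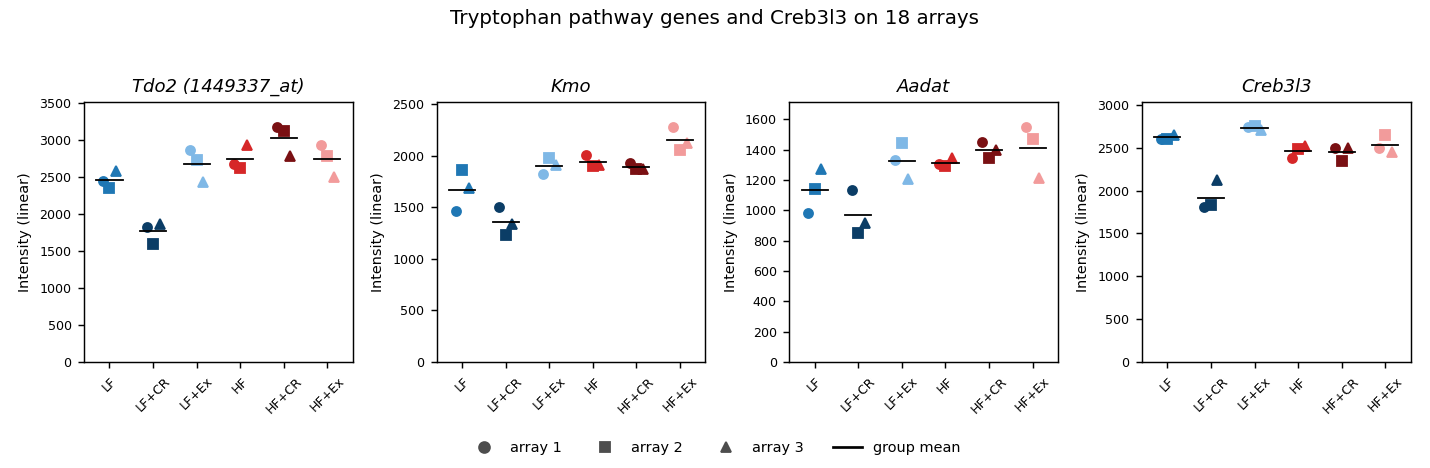
Intensity (linear) of Tdo2 probe set 1449337_at, Kmo, Aadat and the transcription factor gene Creb3l3 on each of 18 arrays; symbols give array numbers and black lines group means. The 3 LF+CR arrays of Tdo2 and Creb3l3 lay below every other array (1595 to 1873 for Tdo2).

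Hal, the first enzyme of histidine breakdown, was not called in any comparison. Its LF+CR arrays on probe set 1418645_at read 2754, 1108 and 2133, which include the lowest and the highest of the 18 arrays, while LF+Ex read 2006, 1995 and 1880.3. The LF+CR against LF difference was 0.26 with a 95% interval of -0.30 to 0.82. HF+Ex, at 1197, 1657 and 1191, lay below all LF+Ex arrays, with a log2 difference of -0.55 (95% interval -1.11 to 0.0061) that was not called (limma adjusted p = 0.322). Of 7 other genes of histidine, glycine, serine and threonine breakdown on the array, none was called in LF+CR against LF (5.57% of all genes). Between HF and HF+CR 1 was higher and 1 lower, where 3.52% and 2.55% of all genes were. Agxt, which converts glyoxylate to glycine, read 1489, 1752 and 1886 in HF and 2846, 2721 and 2863 in HF+CR, a log2 difference of 0.72 (limma adjusted p = 0.0479) that was lost when any 1 of the 6 arrays was left out (0.0767 to 0.198). Agxt was also the 1 of the 7 called in HF+CR against LF+CR, where 8.93% of all genes were. It was higher in HF+CR by 0.79 (0.0237), lost without LF+CR 2 or any 1 HF+CR array (0.0567 to 0.108). Uroc1, the enzyme after Hal, had a log2 difference of -0.34 in HF+CR against HF (limma adjusted p = 0.021), lost without HF 1, HF 3 or HF+CR 2 and with its 2 probe sets averaged (0.425).

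Got1, the cytosolic aspartate aminotransferase, stood higher in restricted livers but with a spread that kept it short of the threshold. On probe set 1450970_at the LF arrays read 1247, 2015 and 2142, and the LF+CR arrays 4432, 2238 and 3652. The groups did not overlap, and the log2 difference was 0.91 (SE 0.276, 95% interval 0.33 to 1.5, limma adjusted p = 0.0697). The HF arrays read 1509, 1075 and 1621, and the HF+CR arrays 3147, 2074 and 2316. These too were apart, by 0.83 (95% interval 0.25 to 1.42, limma adjusted p = 0.0838). Groups that do not overlap were common: 20.2% of all genes in LF+CR against LF and 31.3% in HF+CR against HF, beside 3 and 4 of the 8 members. The LF+CR difference was called without LF+CR 2, the lowest restricted array (adjusted p = 0.023), without the 3 distant arrays (0.0307) and with array weights (0.00944), and the HF+CR difference was called with the clock covariate (0.0399) and when fitted on those 2 groups alone (0.0469). The LF+CR difference was 0.46 without the 4 acinar-marker arrays, the lowest value over the alternatives (adjusted p = 0.547), and those arrays include LF 1, the lowest LF array of Got1, and LF+CR 1, the highest LF+CR array. Got1 tracked Tat over the 18 arrays (r = 0.823; 0.556 after group means were removed), points that share group and array. Of 6 other genes of transamination and glutamate, proline and ornithine breakdown, none was called in any of the 11 comparisons. Between 0% and 9.31% of all genes were called in these.

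Gpt2, the mitochondrial alanine aminotransferase, had its highest means in HF and HF+Ex. On probe set 1455007_s_at the LF arrays read 1865, 2305 and 2265, and the HF arrays 3794, 2854 and 3348. HF was above LF on every array, by 0.63 (SE 0.15, 95% interval 0.31 to 0.95), but limma's adjusted p was 0.0601, and it was called with arrays centred on their median (0.0477), with array weights (0.0129), with the clock covariate (0.0436) or without HF 2 (0.0407). HF+CR read 2474, 2479 and 1923, below every HF array, with a log2 difference of -0.54 (SE 0.15, limma adjusted p = 0.0461). That call was lost without any 1 of HF 1, HF 3, HF+CR 1, HF+CR 2 or HF+CR 3 (0.0782 to 0.206), with quantile normalization (0.0506), with no filter on dim genes (0.0545), without the 4 acinar-marker arrays (0.0641) and without the 3 distant arrays (0.157). HF+Ex read 3652, 2934 and 3922 and overlapped HF. HF+CR was below HF+Ex, with a log2 difference of -0.61 (limma adjusted p = 0.0419), lost without HF+Ex 1, HF+Ex 3 or any 1 HF+CR array (0.0734 to 0.185), without the acinar-marker arrays (0.157) and without the 3 distant arrays (0.145). In LF+CR (2279 ± 186, SD, n = 3) Gpt2 differed from LF (2145 ± 243) by 0.090 (95% interval -0.23 to 0.41).

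The 4 Gpt2 probe sets had the same sign in HF+CR against HF. Their log2 differences were -0.54, -0.76, -0.63 and -0.64, and limma over 29336 probe sets called 2 of the 4 (adjusted p = 0.0496, 0.0198, 0.0521 and 0.0557), where 5.07% of all probe sets were called. On 1438385_s_at the HF arrays read 2381, 1629 and 1978, and the HF+CR arrays 1177, 1318 and 995, all below HF. The call on that probe set was lost without HF 1, HF 3, HF+CR 1 or HF+CR 3 (0.054 to 0.111) and without the 3 distant arrays (0.0694). There the restriction effect differed between diets by -0.91 (SE 0.24, limma adjusted p = 0.0392), while for the gene's brightest probe set the difference was -0.63 and not called (0.0926). The interaction call on 1438385_s_at was lost when any 1 of 8 of the 12 arrays was left out, LF 1, LF 2, LF 3, LF+CR 2, HF 1, HF 3, HF+CR 1 or HF+CR 3 (0.0582 to 0.116). The pairwise correlations of the 4 probe sets over 18 arrays were 0.922 to 0.973. The suffix _s_at marks a probe set that may match more than 1 transcript. Other cell type markers differed between these groups: summed endothelial markers, 6 of 6 above threshold, were 3353 to 3495 in HF and 2969 to 3177 in HF+CR, and summed Kupffer cell and macrophage markers, 7 of 7, were 6163 to 9261 and 4804 to 5779. In LF these sums were 3103 to 3426 and 4722 to 8084. Summed stellate cell and fibroblast markers, 6 of 6 above threshold, were 3586 to 4546 in HF, above LF (3051 to 3445) and HF+CR (3411 to 3522), and 3526 to 6260.4 in HF+Ex. Summed adipocyte markers were 474 to 769 in HF and 469 to 858 in HF+Ex, against 357 to 364 in LF and 352 to 470.1 in HF+CR. Of the 3 adipocyte markers on the array Fabp4 alone exceeded the threshold on all arrays, Adipoq on 1 and Lep on 0. Their part in the Gpt2 result was not tested. Gpt, the cytosolic alanine aminotransferase, was 1689 ± 222 in LF and 2115 ± 33.6 in HF (log2 difference 0.33, limma adjusted p = 0.131, not called), and 1933 ± 173 in HF+CR.

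Psat1, an enzyme of serine synthesis, was near the threshold for entering the test in every group but LF+CR. That threshold is a percentile of each array and not a detection call. On probe set 1454607_s_at LF read 80.3, 100.1 and 96.8, and LF+CR 117, 133 and 151. All LF+CR arrays were above all others in the study, and the log2 difference against LF was 0.46 (SE 0.097, 1.38-fold, limma adjusted p = 0.0102). Psat1 exceeded the threshold on 14 of 18 arrays, which were 3 of 3 in LF+CR, HF and HF+Ex, 2 of 3 in LF and HF+CR and 1 of 3 in LF+Ex. The LF+Ex mean thus rests mostly on values below the threshold, and the offset of 16 compresses differences at this level. HF+CR read 93.7, 99.7 and 97.1 and HF 91.3, 93.6 and 93.2, differing by 0.054 (95% interval -0.15 to 0.26). These groups were barely apart, with the lowest HF+CR array at 93.65 and the highest HF array at 93.57. In this comparison 31.3% of all genes did not overlap. HF+CR was below LF+CR, with a log2 difference of -0.40 (limma adjusted p = 0.0175), the 1 member of 8 called there against 8.93% of all genes. This was lost without LF+CR 3 (0.066), HF+CR 1 (0.0575) or HF+CR 3 (0.0507) and without the 3 distant arrays (0.0668). LF+CR was above LF+Ex by 0.47 (limma adjusted p = 0.00629), again the 1 member of 8 called against 9.31% of all genes. The call against LF held with any array left out and was lost only when the 2 groups were fitted alone (0.113), among the 12 settings in which Psat1 was tested. In the fit over all probe sets it was also lost without LF 1 (0.0524) and without the 3 distant arrays (0.0514). The restriction effects on the 2 diets were -0.41 apart, which was not called (limma adjusted p = 0.0916). The dimmer probe set 1451064_a_at was below threshold on all arrays, at 63.4, 64.4 and 57.2 in LF and 61.3, 87.4 and 74.2 in LF+CR.

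Asns, which makes asparagine and holds the TGATGNAA match closest to its start, was not called in any comparison. Its probe set 1451095_at read 189, 192 and 163 in LF and 166, 170.3 and 195 in LF+CR (log2 difference -0.034, 95% interval -0.30 to 0.23). HF, at 112, 153 and 174, overlapped LF with a difference of -0.30 (limma adjusted p = 0.255), and HF+CR, at 203, 171 and 177, overlapped HF with a difference of 0.32 (0.134). The other Asns probe set, 1433966_x_at, was below threshold on all 18 arrays. Of 22 genes of serine synthesis and ATF4 targets, 1 was called in LF+CR against LF (5.57% of all genes). None was called in HF+CR against HF (6.07%) or HF against LF (0.894%). The count in LF+CR against LF is near the share of all genes. Atf5, a relative of Atf4, was at 1626 ± 195 in LF and 966 ± 113 in LF+CR, a log2 difference of -0.74 (limma adjusted p = 0.0328), lost without the acinar-marker arrays (0.206) and without any 1 of LF 1, LF 2, LF 3, LF+CR 1 or LF+CR 2 (0.0548 to 0.128). Atf4 itself differed by 0.34 in LF+CR against LF (0.215) and 0.10 in HF+CR against HF (0.678). Phgdh, the first enzyme of serine synthesis, differed by 0.0013 and 0.25 in the same comparisons (limma adjusted p = 0.997 and 0.0765). Shmt2, the mitochondrial serine hydroxymethyltransferase, was the 1 of the 22 called in HF+CR against LF+CR, where 8.93% of all genes were. It was higher in HF+CR by 0.43 (0.0113). The call ended with its 3 probe sets averaged (0.0553).

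Genes that regulate these enzymes were mostly not called. Nr3c1, the glucocorticoid receptor, differed by -0.21 in LF+CR against LF and 0.087 in HF+CR against HF (limma adjusted p = 0.306 and 0.612). Klf15, a known regulator of amino acid breakdown, differed by -0.054 and 0.31 (0.926 and 0.246). Creb3l3, a liver transcription factor of fasting metabolism, read 2602, 2602 and 2653 in LF and 1804, 1826 and 2119 in LF+CR, a log2 difference of -0.45 (SE 0.0607, limma adjusted p = 0.000394). Its HF and HF+CR arrays overlapped, and the restriction effect differed between diets by 0.44 (limma adjusted p = 0.00798), which held with any array left out and was lost without the 4 acinar-marker arrays (0.0688) or the 3 distant arrays (0.0541). It was also higher in HF+CR than in LF+CR (0.35, 0.00217) and lower in LF+CR than in LF+Ex (-0.51, 6.3e-05). Of the 9 transcription factor genes on the array, Creb3l3 was the 1 called in LF+CR against LF (5.57% of all genes). None was called in HF+CR against HF (6.07%). In HF+CR against LF+CR 1 of the 9 was higher (Creb3l3) and 1 lower (Ppargc1a), where 5.62% and 3.31% of all genes were. Ppargc1a, a coactivator of fasting genes, differed by -0.64 there (0.0195), lost without LF+CR 1, HF+CR 2 or HF+CR 3 (0.0616 to 0.0885). In LF+CR against LF+Ex 2 of the 9 were lower, Creb3l3 and Hnf4a, where 5.15% of all genes were. Hnf4a differed by -0.33 (0.0239), lost without any 1 of LF+Ex 1, LF+Ex 3, LF+CR 1 or LF+CR 2 and with its 4 probe sets averaged (0.321). None of 10 glucocorticoid and fasting targets, which include Fkbp5, Per1 and Pck1, was called under restriction on either diet. Of all genes, 5.57% were called under restriction on the low-fat diet and 6.07% on the high-fat diet. Tsc22d3, a glucocorticoid-induced gene, was the 1 of these 10 called in HF+CR against LF+CR, where 8.93% of all genes were. It was higher in HF+CR (0.60, 0.024), a call lost without LF+CR 2 or HF+CR 1 (0.0815 and 0.108). The median log2 difference of the 10 went the other way there, at -0.37 against 0.031 over all genes. G6pc, the last enzyme of glucose production, was the 1 of the 10 called in LF+CR against LF+Ex, where 9.31% of all genes were. It was lower in LF+CR (-1.17, 0.0314), lost without any 1 of 5 of the 6 arrays, the exception being LF+CR 3.

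Branched-chain amino acid and lysine breakdown was read from 17 genes on the array. In HF against LF 2 were higher and none lower, where 0.627% of all genes were higher: Mccc1, a subunit of methylcrotonyl-CoA carboxylase in leucine breakdown, and Bckdhb, a subunit of branched-chain keto acid dehydrogenase. Mccc1 was 636 ± 26.4 in LF and 825 ± 9.53 in HF (log2 difference 0.37, limma adjusted p = 0.018), lost without LF 1, LF 3, HF 1 or HF 3 (0.0582 to 0.0977) and without the acinar-marker arrays (0.123). Bckdhb differed by 0.30 (0.0446), lost without any 1 of 5 of the 6 arrays, the exception being HF 2 (0.0554 to 0.24). In HF+Ex against LF+Ex 3 were higher, where 1.07% of all genes were: Mccc1 by 0.42 (0.00513), Mccc2, the partner subunit, by 0.41 (0.0404) and Bckdhb by 0.33 (0.02). The Mccc1 call held with any array left out. Those of Mccc2 and Bckdhb held in 1 and 2 of 6 such fits (without LF+Ex 2 for both, and without HF+Ex 2 for Bckdhb), and all 3 ended without the acinar-marker arrays (0.0565, 0.138 and 0.113). In the fit over all probe sets, the dimmer Mccc1 probe set was not called in HF+Ex against LF+Ex (0.20, limma adjusted p = 0.246). It was also not called in HF against LF (0.23, 0.176). The dimmer Mccc2 probe sets were not called in HF+Ex against LF+Ex (0.19 and 0.35, limma adjusted p = 0.375 and 0.0867). In HF+CR against LF+CR all these were called higher, for Mccc1 by 0.27 (0.04) and for Mccc2 by 0.40 and 0.31 (0.0187 and 0.0491). In HF+CR against LF+CR 5 of the 17 were higher and none lower, where 5.62% of all genes were higher: Mccc2 by 0.45 (0.00918), Acadsb, an acyl-CoA dehydrogenase of isoleucine breakdown, by 0.28, Pccb by 0.23, Mccc1 by 0.23 and Aldh7a1, named after its value was seen, by 0.22 (0.0115). Of these, Mccc2 held with any array left out. Acadsb, Pccb and Mccc1 were lost without LF+CR 2 (0.131, 0.184 and 0.202), HF+CR 1 or HF+CR 2, Pccb and Mccc1 also without HF+CR 3, and Mccc1 without LF+CR 3. Aldh7a1 was not checked with arrays left out or under the other settings.

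Under restriction, 2 of the 17 genes were called on the low-fat diet and 1 on the high-fat diet, where 5.57% and 6.07% of all genes were. The count on the high-fat diet is near that share. In LF+CR against LF, Bckdhb was higher by 0.24 (limma adjusted p = 0.0456) and its kinase Bckdk, which shuts the dehydrogenase off, had a log2 difference of -0.26 (0.0401). Bckdk lost its call when any array was left out, and Bckdhb in 5 of 6 such fits, all but that without LF 3. Acadsb was higher in HF+CR than in HF, by 0.29 (0.0329), lost without HF 1, HF 3, HF+CR 1 or HF+CR 2 (0.104 to 0.133). The restriction effect differed between diets for Bckdhb (-0.41, 0.0191), lost without HF 1 (0.0597), and for Acadsb (0.42, 0.0299), lost in 7 of 12 such fits (LF 1, LF 3, LF+CR 2, HF 1, HF 3, HF+CR 1 and HF+CR 2). Bckdhb was also the 1 of the 17 called in LF+CR against LF+Ex, where 9.31% of all genes were, and was higher in LF+CR (0.29, 0.0138). That call ended without LF+Ex 1 or LF+CR 1 (0.0662 and 0.0605). Of 8 amino acid transporters, Slc43a1 was the 1 called in HF+CR against HF, where 6.07% of all genes were. It was higher in HF+CR (0.56, limma adjusted p = 0.041), lost without any 1 of 5 of the 6 arrays, all but HF 2. Slc1a2 was the 1 called in LF+CR against LF+Ex, where 9.31% of all genes were. It was lower in LF+CR (-0.64, 0.042), lost without any 1 of 5 of the 6 arrays, all but LF+CR 3.

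The tested genes whose log2 values correlated best with each member over the 18 arrays are given as a description; arrays share group and normalization, and no p is given. For Tat they were Myo9a (0.956), Cps1 (0.905), Brf2 (0.894). Cps1 encodes the entry enzyme of the urea cycle. For Got1 they were Brf2 (0.915), Ccdc69 (0.872), Vangl2 (0.844), so Brf2 appeared for both. For Gpt2 they were Dmd (0.897), Mpzl2 (0.891), Lyve1 (0.888), of which Lyve1 is known as an endothelial marker. For Hal they were Tiam2 (0.867), Csnk1g2 (0.851), Amdhd1 (0.832), and Amdhd1 is a later enzyme of histidine breakdown. For Hpd they were Scnn1a (0.89), Cnksr1 (0.887), Sdr16c5 (0.884), for Tdo2 (brightest probe set) B230219D22Rik (0.876), Rpf1 (0.845), Arhgef12 (0.838), for Asns Tlr9 (0.95), Cdr2l (0.929), Wnt6 (0.924) and for Psat1 Lbx2 (0.837), Slc22a26 (0.835), Coq8b (0.831). Among the members themselves Hpd and Hal correlated at r = 0.609 (0.726 within groups) and Gpt2 and Asns at -0.554 (-0.055 within groups).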

How the data were processed

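Liver RNA of 18 mice was read on Affymetrix Mouse Genome 430 2.0 arrays. The authors deposited 1 linear intensity per probe set and array. The summarisation, background correction and normalization were not given in the sources used here, so no background correction could be repeated. Probe sets were named from the platform annotation, using those with 1 symbol. A gene was read from the probe set with the highest mean log2(intensity + 16), and 14201 genes above the array's 40th percentile on at least 3 arrays were fitted with limma 3.58.1 (R 4.3.3), 1 mean per group over all 18 arrays. P-values were adjusted by Benjamini-Hochberg over all genes, and in a further fit over 29336 probe sets. The log2 values were computed here from the deposited intensities. The code was tested on simulated data. Same-numbered arrays did not deviate together (r from -0.364 to 0.289), so no block was used.

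The members and lists were chosen with earlier results of these data known. From each list, up to 4 called genes per comparison with the largest differences were named, and Nr3c1, Klf15, Atf4, Phgdh and Gpt always. The 3 genes most correlated with each member were named as alike. Of 99 listed genes, 90 were tested and 9 had no probe set under their symbol alone. Alternatives changed the scaling, offset, filter, choice of probe set, variance model, weights, block, clock covariate and arrays.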

Additional observations from a re-analysis of the deposited data

Results flagged for a closer look

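The effect of calorie restriction differed between the diets, by limma's interaction term over all genes or probe sets, for the following. Differences are the log2 effect of restriction on the high-fat diet minus that on the low-fat diet. For Tdo2 the difference was 0.62 on 1449337_at (limma adjusted p = 0.00837) and 0.55 on 1455770_at (0.00792), both held in 13 of 13 alternative settings and in 12 of 12 fits with 1 array left out. For the brightest Tdo2 probe set the interaction was not called. For Gpt2 probe set 1438385_s_at it was -0.91 (limma adjusted p = 0.0392), and the call was lost in 8 of 12 fits with 1 array left out. For Creb3l3 it was 0.44 (limma adjusted p = 0.00798), for Acadsb 0.42 (0.0299) and for Bckdhb -0.41 (0.0191). The calls on Creb3l3, Acadsb, Bckdhb and Gpt2 ended without the 4 arrays with acinar markers (0.0688, 0.0801, 0.12 and 0.0906) and without the 3 arrays most distant on the first principal component (0.0541, 0.137, 0.0865 and 0.209).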

How the results depend on the processing

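No value reversed its sign while called, and the restriction calls on Tat held under every one of 14 alternatives. The number of members called moved as follows. In HF against LF it became 1 with arrays centred on their median, with array weights and with the clock covariate. In LF+CR against LF it became 1 above the 60th percentile and when only the groups compared were fitted. It became 3 with array weights and without the 3 distant arrays, both by adding Got1. With probe sets averaged it stayed at 2, with Tdo2 in place of Psat1. In HF+CR against HF it became 1 with quantile normalization, with no filter on dim genes, and without the 3 distant arrays or the 4 acinar-marker arrays, and 3 with the clock covariate, which added Got1. With only the groups compared it stayed at 2, with Got1 in place of Gpt2. In HF+CR against LF+CR it became 0 above the 60th percentile, without the 3 distant arrays and with only the groups compared, and 2 with array weights. In HF+Ex against LF+Ex it became 2 with array weights and 0 without the 3 distant arrays, without the 4 acinar-marker arrays and with only the groups compared. In LF+CR against LF+Ex it became 0 above the 60th percentile and with only the groups compared, and 3 with array weights. In HF+CR against HF+Ex it became 1 without the 3 distant or the 4 acinar-marker arrays and 0 with only the groups compared. For the diet difference in restriction it became 1 with probe sets averaged (Tdo2). In the main fit, calls on the 13 member probe sets tested, summed over all comparisons, numbered 21. Of all probe sets, 0% to 8.35% were called in a comparison there. The summed calls went from 21 to 34 with array weights and to 14 without the 3 distant arrays. They went to 15 without the 4 acinar-marker arrays and to 16 with only the groups compared, and the other settings gave 17 to 26. Shares of all genes and probe sets called under these settings are not given here. A change particular to the members thus cannot be told from a general one. Above the 60th percentile and with probe sets averaged Psat1 was not tested, and fits on only the groups compared have fewer residual degrees of freedom. For the others the cause was not tested.

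With 1 array left out in turn, the members called ranged from 0 to 1 in HF against LF, 2 to 3 in LF+CR against LF, 1 to 2 in HF+CR against HF, 0 to 0 for both running comparisons, 0 to 1 in HF+CR against LF+CR, 0 to 2 in HF+Ex against LF+Ex, 1 to 2 in LF+CR against LF+Ex, 1 to 2 in HF+CR against HF+Ex and 0 to 0 for both interactions. The probe set calls ranged from 15 to 26. With the replicate number as a block, HF+CR against HF and HF+CR against HF+Ex each kept 1 member, since Gpt2 lost its call (limma adjusted p = 0.0705 and 0.0687). The block changed no other member call. Between 0 and 4 of 6 arrays correlated best with their own number. Signal limits Psat1 and Asns, whose dimmer probe sets stayed below the 40th percentile on all 18 arrays. Other scalings moved the median of all genes by at most 0.0683 on the log2 scale.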
